A study of Mus musculus with 8 samples.

Results

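The cadherins and protocadherins described here are all genes in the deposited expression table whose whole symbol is Cdh followed by a number, or whose symbol starts with Pcdh. There were 95 of them among 22558 genes, 24 Cdh and 71 Pcdh symbols, and 59 of the Pcdh symbols belonged to the clusters (15 alpha, 22 beta and 22 gamma). Expression was measured by RNA-seq in embryoid bodies, floating aggregates of differentiating cells, grown from the mouse embryonic stem cell lines R1 and R1/E. One arm was induced with doxycycline (dox) to overexpress Oct6, the POU-domain transcription factor encoded by Pou3f1, and the other was the control. Each arm had 1 library at day 2, 1 at day 4 and 1 at day 6, which makes 6 libraries. An Oct6 ChIP and its input came from day 4 cells overexpressing Oct6. The labels do not say which line an arm came from, whether control cells also received dox, which promoter drives the transgene, or whether a library pools cultures, so dox or the line cannot be told apart from Oct6 as a source of any difference. The stem cells had been kept on feeder cells, and the prefix fbs in the library names is not explained.

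Cadherins are calcium-dependent adhesion molecules through which cells recognise and hold their neighbours. Classical cadherins bind one another between cells and are anchored to actin inside the cell by catenins. Epithelial cells of the early embryo carry E-cadherin, and the forming neural plate and mesoderm exchange it for N-cadherin, a change known as cadherin switching. Protocadherins lack the catenin-binding tail. Those of the alpha, beta and gamma clusters are expressed in combinations that give neurons individual surface identities, and the non-clustered delta protocadherins mark regions and axon tracts of the developing brain.

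Pou3f1 checked the labels: its level was 312, 222 and 86.8 FPKM on days 2, 4 and 6 in induced cells, against 64.3, 10.1 and 4.76 FPKM in control cells. FPKM, in which the authors gave all values, counts fragments relative to transcript length and sequencing depth, and here it rests on an estimated 22500000 to 56100000 fragments per library. At those depths 1 fragment in a 3 kb transcript is worth 0.00594 to 0.0148 FPKM. Differences are given as induced minus control on the log2(FPKM + 1) scale, which understates those of weakly expressed genes. A gene is called at least 2-fold higher or lower where this difference reached 1 in size and the FPKM was at least 1 in either library, and with 1 library per arm and day no such call has a replicate check. The median difference over all genes at this limit was 0.17, 0.10 and 0.06 on days 2, 4 and 6. It became 0.03, 0.00 and -0.00 once each library was divided by a median ratio size factor (median ratio scaling), and -0.05, -0.02 and 0.01 after quantile normalisation.

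Of the 95 genes, 46 reached 1 FPKM in at least 1 library and 12 reached 5 FPKM. At day 2, 7 of 28 members with enough signal were at least 2-fold higher in induced cells, against 9.72% of all genes, and 2 were lower, against 1.83%. At day 4 the numbers were 9 and 2 of 33 (6.09% and 2.11% of all genes), and at day 6 they were 5 and 1 of 41 (3.37% and 2.1%). Weakly expressed members passed the 1 FPKM limit mostly through the library in which they were high, so these counts describe and do not test the family. Without that limit, 78 of the 91 members listed above 0 at day 2 were above control by any amount, against 63.3% of all genes. The same was true of 79 of 95 at day 4, against 60.1%, and of 71 of 95 at day 6, against 58.5%. All 3 induced libraries lay above all 3 control libraries for 33 members, against 11.2% of all genes, and below them for 3 (Cdh1, Cdh3 and Pcdh1), against 2.25%. Counted day by day, 60 members were above control by any amount on each of the 3 days, against 29.5% of all genes, and 5 were below it on each, against 11.4%. The median difference over the 95, with no FPKM limit, was 0.19, 0.25 and 0.16 on days 2, 4 and 6. Symbols of one cluster are neighbours that share exons or near-identical sequence, so they are not independent of each other.

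**Figure D1:**
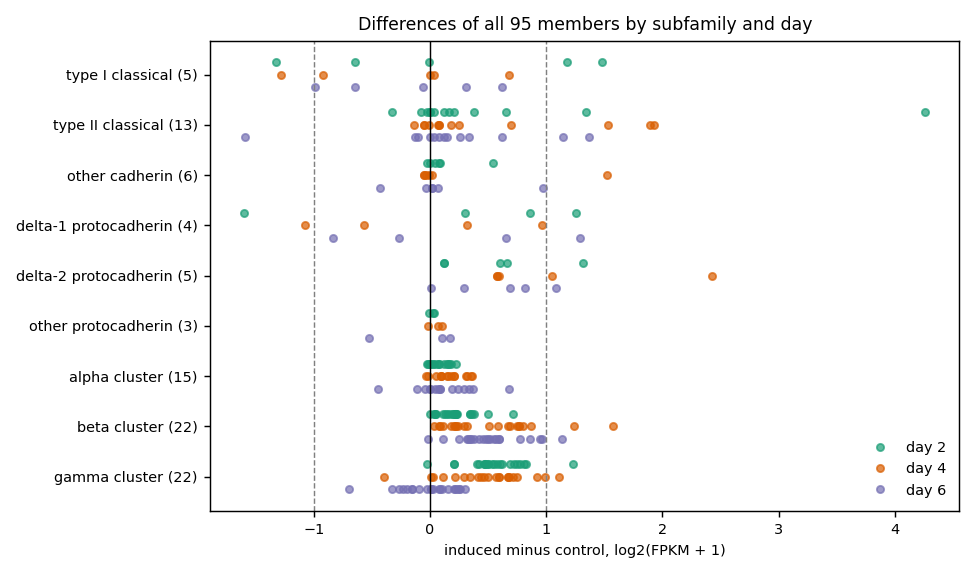
Induced minus control difference on the log2(FPKM + 1) scale for each of the 95 members (1 point per symbol and day), by subfamily with the number of symbols in parentheses; dashed lines mark a 2-fold change. Cdh11 at day 2 stands apart at 4.26, beta cluster points lie almost all right of 0 on each day, and gamma cluster points lie around 0 at day 6.

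limma was used to test the mean difference of the 3 days over all 13661 genes that reached 1 FPKM in any library, with day as a block and Benjamini-Hochberg adjustment. The spread tested is that of the difference between days, not between repeated cultures. The fit left 2 residual degrees of freedom, and at an adjusted p of 0.05 it passed 2 genes as higher (0.0146%) and 1 as lower (0.00732%) in the whole table, none of them a member. At an unadjusted p of 0.05 it passed 17 members as higher and 3 as lower of 46, against 16.3% and 4.72% of all genes. The number of higher members was 7 without day 4 (6.63% of all genes), 7 without the day block (7.39%), 11 after quantile normalisation (10.4%) and 46 of 95 without the FPKM limit (13.3%). The 3 lower ones were Cdh3, Pcdh1 and Cdh1. No member passed a second limma fit for a trend of the difference with day (1 residual degree of freedom, 0 of 13661 genes at an adjusted p of 0.05, and 1793 genes with 3 of 46 members at an unadjusted p of 0.05).

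Oct6 binding was read from the deposited day 4 list of 7979 peaks, each 133 bases wide. Of the 95 symbols, 60 matched the GENCODE annotation of NCBIM37, the assembly behind mm9. The other 35 were Cdh29, now named Cdhr4 in RefSeq, and symbols of the alpha and gamma clusters. A peak lay within 100 kb of the start site or inside the gene for 34 of the 60 members, against 50.3% of all matched genes. Within 10 kb of the start site there was one for 11 members, against 13.2%. Within 1 kb there was one for 3 members (Cdh7, Pcdh8 and Pcdhb2), against 7.45%. Neighbours can share a peak, so these members do not each stand for a separate peak. Pcdhb1 to Pcdhb8 all counted through 1 peak, which also served both Pcdhb2 and Pcdhb3 within 10 kb. Cdh1 shared peaks with Cdh3, and Pcdh1 with Pcdh12. With the gene body counted, 20 of 60 (33.3%) had a peak within 10 kb, against 18.8% of all genes, and 30 of 60 (50%) within 50 kb, against 34.7%, so the order of the shares of members and of all genes depends on the distance rule. Gene length differed too: 13 of the 60 members were longer than 200 kb, against 945 of all 21586 matched genes. At that length 8 of 13 members (61.5%) held a peak in the body, against 60.2% of all genes. Peaks per Mb of these long genes numbered 5.73 for members and 3.42 for all genes. The part of gene length in the shares was not tested. The peak scores are the authors' and range from 7.6 to 145.6 with a median of 11.4, and 41.3% of peaks scored 10.1 or less. Of the 77 peaks at members, 42 scored 10.1.

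The octamer ATGCAAAT, the classical recognition sequence of POU factors, was searched on both strands of each peak. It occurred in 6 of the 77 peaks at members, in 4.19% of all 7965 peaks on the reference chromosomes, and in 1.27% of 15929 flanks of the same width. The looser form ATGCNAAT, which includes the octamer, occurred in the same number of member peaks and in 6.60% of all peaks. A match describes the sequence and is no evidence of a bound site by itself.

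**Figure D2:**
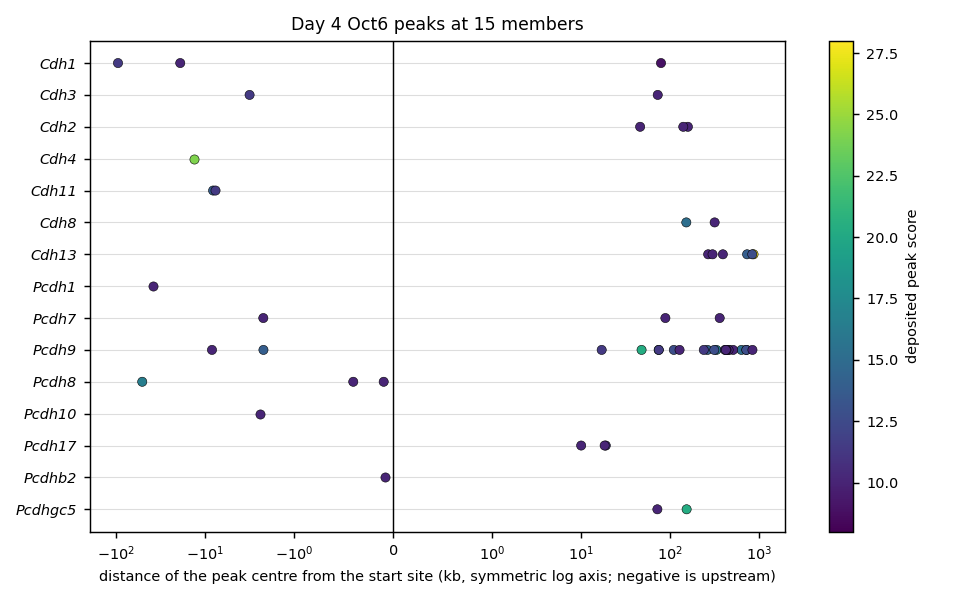
Position of each deposited day 4 Oct6 peak relative to the start site of 15 members (kb, symmetric log axis, negative upstream), 1 point per peak, coloured by the authors' score. Peaks within 1 kb of a start site are seen at Pcdh8 and Pcdhb2, and Pcdh9 carries 22 peaks.

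The type I classical cadherins differed in opposite directions, with Cdh1 and Cdh3 lower and Cdh4 and, at day 2, Cdh2 higher in induced cells. Cdh1, which encodes E-cadherin, the main adhesion molecule of epiblast and epithelium, had 78.8, 53.7 and 57.9 FPKM on days 2, 4 and 6 in induced cells, against 124, 132 and 91.0 FPKM in control cells. All 3 induced libraries lay below all 3 control libraries. The differences were -0.64, -1.28 and -0.64, with a mean of -0.86 ± 0.15 (SE) in limma's fit and an adjusted p of 0.124. Cdh3, the gene of P-cadherin of placental and surface epithelia, had 2.06, 3.25 and 4.42 FPKM in induced cells, against 6.67, 7.04 and 9.75 FPKM in control cells. Its arms did not overlap either. On the log2(FPKM + 1) scale it was called lower at day 2 (-1.32) but fell short of a call at day 4 (-0.92) and day 6 (-0.99). The plain FPKM ratios of induced to control on those 2 later days were 0.462 and 0.453. On those days it passed the limit for a call with median ratio scaling (-1.01 and -1.04) and with quantile normalisation (-1.11 on both). Its mean difference of -1.08 ± 0.16 (SE) had the smallest limma p of all members, with an adjusted p of 0.0963.

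Cdh2, the gene of N-cadherin, was higher in induced cells at day 2 and close to control later. It had 16.4, 33.1 and 40.0 FPKM in induced cells, against 5.24, 32.3 and 32.2 FPKM in control cells. The differences were 1.48, 0.03 and 0.31, and the day 4 value became -0.08 under median ratio scaling. From day 2 to day 4 (later minus earlier), Cdh2 differed by 0.97 in induced cells and by 2.42 in control cells. The ratio of Cdh2 to Cdh1 FPKM was 0.208, 0.616 and 0.691 in induced cells and 0.0424, 0.245 and 0.353 in control cells, so Cdh1 exceeded Cdh2 in every library. Of the summed FPKM of Cdh1, Cdh2, Cdh3, Cdh4 and Cdh15, Cdh1 made up 78.9%, 58.2% and 55.6% in induced cells. In control cells it made up 90.7%, 76.6% and 68.0%.

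Cdh4, which encodes R-cadherin of retina and brain, had 2.40, 2.11 and 1.79 FPKM in induced cells, against 0.501, 0.943 and 0.823 FPKM in control cells. The arms did not overlap, and the differences of 1.18 (0.91 after quantile normalisation), 0.68 and 0.62 gave a limma adjusted p of 0.153. The gene lies on chromosome 2 (179177136 to 179634078, plus strand, mm9), and a peak between genes, centred 13.4 kb upstream of its start, had a score of 24.1, rank 112 in the list. Its sequence is shown because it is the highest-scoring peak at a member that holds the octamer (capitals).
Cdh4 peak, chr2:179163707-179163839, plus strand: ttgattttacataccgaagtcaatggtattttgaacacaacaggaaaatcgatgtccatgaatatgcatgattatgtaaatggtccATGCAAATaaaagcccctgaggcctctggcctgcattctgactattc
Cdh15, the muscle cadherin, stayed between 0.0121 and 0.214 FPKM in all libraries. The nearest peak to Cdh1 lay 19.1 kb upstream of its start and scored 10.1, and the nearest to Cdh3 lay 3.17 kb upstream and scored 11.4. Neither holds the octamer, and both are between genes. Cdh2 held 3 peaks, all in the gene body, scored 10.1 each.

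**Figure D3:**
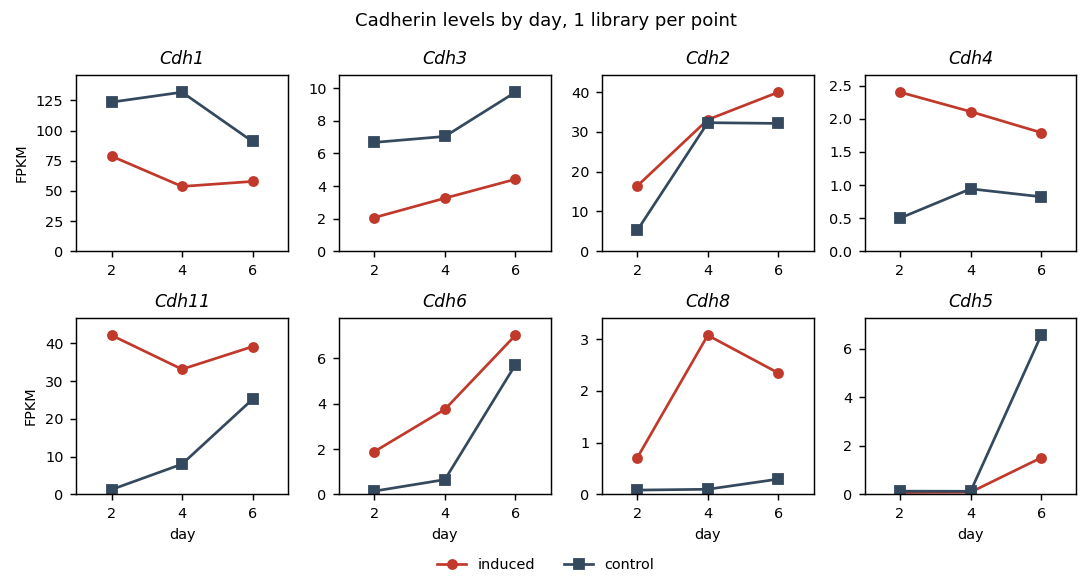
FPKM of 8 cadherins by day (1 library per point, linear axes from 0, scaled per panel), induced (circles) and control (squares). Induced Cdh1 and Cdh3 run below control on each day, Cdh2 differs at day 2 (16.4 FPKM in induced, 5.24 FPKM in control), and Cdh11 differs most at day 2 (42.1 FPKM in induced, 1.25 FPKM in control).

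Markers of other cell types differed between the arms too. The 6 visceral endoderm markers, an epithelium in which Cdh1 is active, summed to 6.10, 6.60 and 13.3 FPKM in induced cells, against 35.7, 122 and 168 FPKM in control cells, and none was listed at 0 in any library. All 6 were at least 2-fold lower at days 4 and 6. The 5 simple epithelium markers summed to 168, 291 and 637 FPKM in induced cells, against 173, 728 and 938 FPKM in control cells. Their part in the lower Cdh1 and Cdh3 values was not tested, and in bulk RNA fewer cells of a type cannot be told apart from less RNA per cell. The 5 stem cell and epiblast markers summed to 714, 717 and 252 FPKM in induced cells, against 1477, 715 and 218 FPKM in control cells, and none was listed at 0. At day 2, Pou5f1, Sox2 and Utf1 were at least 2-fold lower and the median of the 5 was -1.01, and Dppa4 was higher at days 4 and 6. Their part in the Cdh1 values was not tested.

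Of the catenins, which link cadherins to actin, none of 5 measured at 1 FPKM was called at day 2. Calls of higher were made for 1 of 6 at day 4 (6.09% of all genes) and 2 of 6 at day 6 (3.37%). The medians over the list were 0.39, 0.31 and 0.01 on days 2, 4 and 6. Ctnnb1, the gene of beta-catenin, had 339, 454 and 468 FPKM in induced cells, against 286, 352 and 465 FPKM in control cells. The neural forms differed more at day 6: Ctnna2 had 3.27 FPKM in induced and 0.683 FPKM in control cells, and Ctnnd2 had 2.55 FPKM in induced and 0.742 FPKM in control cells. Ctnnd2 was also at least 2-fold higher at day 4. Of 9 genes known as repressors of Cdh1 transcription or their relatives, 8, 7 and 8 were measured at 1 FPKM on days 2, 4 and 6. Calls of higher in induced cells numbered 2, 3 and 0, against 9.72%, 6.09% and 3.37% of all genes. Snai1 alone was called lower, at day 4, against 2.11% of all genes. The median differences over all 9, with no FPKM limit, were 0.40, 0.30 and -0.08. Over all genes with at least 1 FPKM in either library they were 0.17, 0.10 and 0.06. Zeb2 had 8.04, 6.22 and 8.54 FPKM in induced cells, against 0.407, 1.64 and 4.58 FPKM in control cells. Twist1 had 10.1, 15.0 and 14.6 FPKM in induced cells, against 1.58, 5.04 and 23.1 FPKM in control cells, so control was the higher at day 6. Zeb1 differed by 1.63 at day 4, and Snai1, with 3.88 FPKM in induced and 11.7 FPKM in control cells, by -1.38 on that day. Among 10 epithelial partners, 9 were measured at 1 FPKM on each day. Lower calls were made for 2 at day 2 (Grhl2 and Esrp1, at -1.36 and -1.28), against 1.83% of all genes. At day 4 there were 2 (Cldn4 and Cldn7, at -1.33 and -1.20), against 2.11%. None was higher, and the list medians were -0.11, -0.42 and -0.32. Esrp1, a splicing factor of epithelia, had 9.52, 21.4 and 17.98 FPKM in induced cells, against 24.6, 42.4 and 28.2 FPKM in control cells.

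Among the 13 type II classical cadherins, whose members are expressed in mesenchyme, vessels and restricted parts of the nervous system, Cdh11 showed the greatest difference of all 95 genes. Cdh11, known as OB-cadherin and typical of mesenchyme, had 42.1, 33.1 and 39.1 FPKM in induced cells, against 1.25, 7.999 and 25.2 FPKM in control cells. All 3 induced libraries lay above all 3 control libraries, and the control level was higher on each later day. The differences were 4.26, 1.92 and 0.62. limma gave a mean of 2.27 ± 0.67 (SE) with an adjusted p of 0.179, and a trend of -0.91 ± 0.09 (SE) per day with an adjusted p of 0.147. Without the day 2 libraries the mean was 1.27, and over all alternatives the adjusted p ran from 0.131 to 0.587. The summed FPKM of the 13 type II genes was 53.0, 48.5 and 60.4 in induced cells, against 8.43, 16.6 and 46.6 in control cells.

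The stem cells had been kept on feeders, so a fibroblast list stands beside Cdh11. Its 7 markers summed to 95.8, 41.4 and 35.4 FPKM in induced cells, against 11.1, 9.28 and 109 FPKM in control cells. Col1a2 alone had 80.2, 30.4 and 11.2 FPKM in induced cells, against 1.76, 1.003 and 9.72 FPKM in control cells. The other 6 markers together had 15.7, 11.1 and 24.1 FPKM in induced cells, against 9.34, 8.28 and 99.4 FPKM in control cells. Of the 7, 2 were at least 2-fold higher at day 2, 2 were higher and 1 lower at day 4, and 5 were lower at day 6. No marker of the list was at 0, and their part in the Cdh11 values was not tested.

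Cdh11 lies on chromosome 8 (105156895 to 105309011, minus strand, mm9). A pair of peaks between genes lay 7.66 and 8.15 kb upstream of its start, with scores of 11.4 and 13.9. Both are shown because they are the peaks nearest to the gene with the greatest difference, and neither holds the octamer or its looser form.
Cdh11 nearer peak, chr8:105316603-105316735, plus strand: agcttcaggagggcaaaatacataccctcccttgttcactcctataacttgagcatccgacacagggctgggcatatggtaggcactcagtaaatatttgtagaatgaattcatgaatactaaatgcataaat
Cdh11 farther peak, chr8:105317098-105317230, plus strand: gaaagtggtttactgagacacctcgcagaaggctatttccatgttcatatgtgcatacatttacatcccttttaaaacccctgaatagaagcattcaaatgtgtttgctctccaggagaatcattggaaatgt
Cdh6, a cadherin of kidney, hindbrain and neural crest, had 1.89, 3.75 and 7.02 FPKM in induced cells, against 0.140, 0.648 and 5.72 FPKM in control cells. It was called higher at days 2 and 4 (1.34 and 1.53) but not at day 6 (0.26). Day 6 minus day 4 was 0.76 in induced cells and 2.03 in control cells.

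Cdh8, a cadherin of forebrain regions, had 0.705, 3.07 and 2.35 FPKM in induced cells, against 0.0811, 0.0970 and 0.294 FPKM in control cells. The arms did not overlap, and the differences were 0.66, 1.89 and 1.37. Its control level stayed below 1 FPKM on all days. The limma mean was 1.31 ± 0.28 (SE) with an adjusted p of 0.144. Cdh22, another brain cadherin, had 0.160, 1.10 and 2.11 FPKM in induced cells, against 0.0348, 0.294 and 0.405 FPKM in control cells, and was called at day 6 (1.15, or 0.97 after quantile normalisation). Cdh24, which is broadly expressed, had 4.63, 4.51 and 5.93 FPKM in induced cells, against 3.32, 5.06 and 6.59 FPKM in control cells, with no call. Cdh10 and Cdh9 had no call against control on any day. Cdh9 was lower at day 6 than at day 2 in both arms, with 2.03, 0.753 and 0.222 FPKM in induced cells and 1.63, 0.477 and 0.195 FPKM in control cells. Cdh7, Cdh12, Cdh18, Cdh19 and Cdh20 did not reach 1 FPKM in any library.

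Cdh5, the gene of VE-cadherin of endothelial junctions, was the single member called lower at day 6 in the deposited values, joined by Cdh3 under either of the other scalings (-1.04 and -1.11). It had 0.0728, 0.0859 and 1.51 FPKM in induced cells, against 0.129, 0.124 and 6.55 FPKM in control cells, so the day 6 difference was -1.59. Pcdh12, a protocadherin of the same endothelial cells, had 0.218 FPKM in induced and 0.748 FPKM in control cells at day 6, below the limit for a call. The 7 endothelial markers summed to 10.7, 6.05 and 15.96 FPKM in induced cells, against 12.8, 10.7 and 44.0 FPKM in control cells. At day 6, 5 of the 7 were at least 2-fold lower, and Emcn was listed at 0 in induced cells at days 2 and 4 and in control cells at day 4. Their part in the Cdh5 value was not tested.

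Of the other cadherins, Cdh13 alone reached 1 FPKM. It encodes T-cadherin, which is held by a lipid anchor and lacks a cytoplasmic tail. Cdh13 had 0.693, 4.39 and 3.09 FPKM in induced cells, against 0.164, 0.882 and 1.08 FPKM in control cells. The call was at day 4 (1.52), the day 6 difference was 0.97, and the lowest induced library lay within the control range. The gene spans 1041 kb and held 6 peaks, the strongest with a score of 27.8, rank 65 in the list, in an intron 876 kb from the start. Cdh16, Cdh17, Cdh23, Cdh26 and Cdh29 stayed at 0.602 FPKM or less.

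The delta-1 protocadherins diverged within the subfamily. Pcdh1, an epithelial member, had 4.53, 4.18 and 4.85 FPKM in induced cells, against 15.7, 9.90 and 9.46 FPKM in control cells. It was at least 2-fold lower at days 2 and 4 (-1.60 and -1.07) and stood at -0.84 at day 6, and its arms did not overlap. The limma mean was -1.17 ± 0.19 (SE) with an adjusted p of 0.108. Pcdh7 had 1.92, 7.39 and 11.7 FPKM in induced cells, against 0.607, 11.4 and 14.3 FPKM in control cells. Its differences of 0.86, -0.56 and -0.26 fell short of a call on the log2(FPKM + 1) scale. Pcdh11x, an X-linked member, had 0.748, 0.754 and 0.848 FPKM in induced cells, against 0.422, 0.407 and 0.178 FPKM in control cells. Its arms did not overlap, but it remained below 1 FPKM.

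Pcdh9, a delta-1 protocadherin of brain circuits, stayed at 0.130 FPKM or less in control cells. It had 1.57, 1.14 and 1.77 FPKM in induced cells, against 0.0772, 0.101 and 0.130 FPKM in control cells, with differences of 1.26, 0.96 and 1.29 and no overlap. The mean of 1.17 ± 0.19 (SE) had a limma adjusted p of 0.110. The gene covers 873 kb of chromosome 14 (93414731 to 94287951, minus strand, mm9), and 22 peaks met the distance rule, 20 of them in the gene body. That is 22.9 peaks per Mb of gene, against 3.65 per Mb over all 21586 matched genes. Among the 945 genes longer than 200 kb it ranked 4 by this density, a comparison chosen after its value was seen. Over all members the density was 5.47 per Mb. The peaks of the gene body were all intronic and scored 10.1 to 20.3, and 2 of them hold the octamer. Both are shown, the first with the octamer on the plus strand and the second with it on the minus strand.
Pcdh9 intronic peak 1, chr14:93869698-93869830, plus strand: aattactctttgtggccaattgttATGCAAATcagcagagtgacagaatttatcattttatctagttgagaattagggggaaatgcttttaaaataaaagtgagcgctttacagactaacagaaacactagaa
Pcdh9 intronic peak 2, chr14:93970728-93970860, plus strand: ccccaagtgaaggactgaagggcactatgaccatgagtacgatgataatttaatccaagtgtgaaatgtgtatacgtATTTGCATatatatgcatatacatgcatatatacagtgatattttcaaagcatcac

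**Figure D4:**
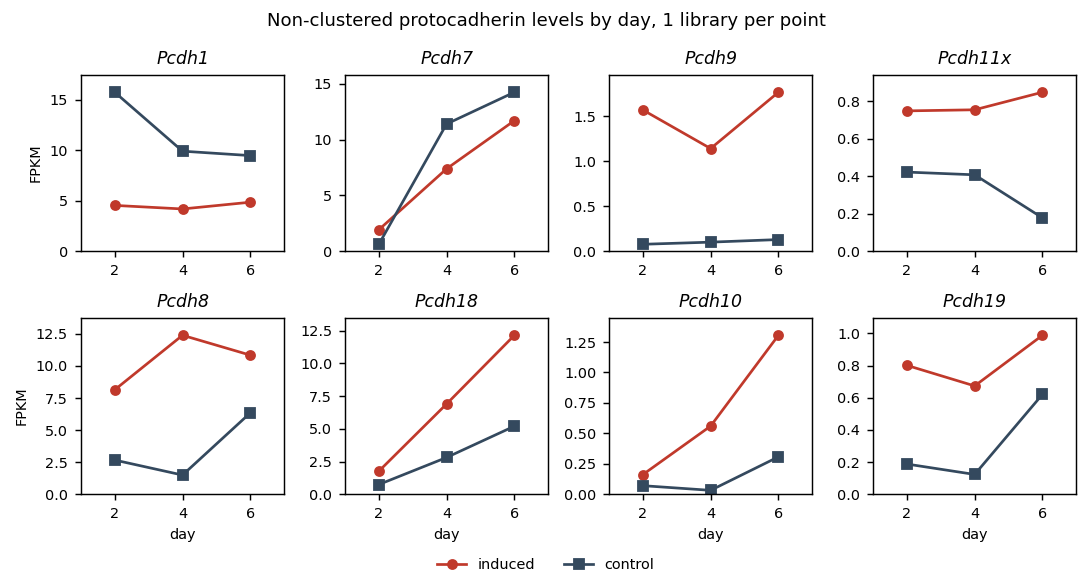
FPKM of 8 non-clustered protocadherins by day (1 library per point, linear axes from 0, scaled per panel), induced (circles) and control (squares). Pcdh1 runs below control on all days, Pcdh9 stays near 0 in control, and Pcdh8 differs most at day 4 (12.4 FPKM in induced, 1.499 FPKM in control).

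All 5 delta-2 protocadherins, which guide cell movement and axon growth in embryo and brain, were above control on each day as deposited. The share over all genes was 29.5%. With median ratio scaling 4 of 5 were above at day 6, and with quantile normalisation 4 of 5 at day 2 and 4 of 5 at day 6. Pcdh8, known in frog as paraxial protocadherin and in brain as an activity-regulated synaptic molecule, had 8.14, 12.4 and 10.8 FPKM in induced cells, against 2.67, 1.499 and 6.35 FPKM in control cells. The arms did not overlap, the differences were 1.32 (0.91 after quantile normalisation), 2.42 and 0.69, and the limma mean was 1.48 ± 0.34 (SE) with an adjusted p of 0.147. The 5 mesoderm markers summed to 3.26, 139 and 53.3 FPKM in induced cells, against 2.92, 217 and 74.2 FPKM in control cells. T alone had 135 FPKM in induced and 196 FPKM in control cells at day 4. Of the 5, 2 were called lower at day 4 and 1 at day 6, with none called higher on any day. Mesp1 was listed at 0 in control cells at day 2. Their part in the Pcdh8 values was not tested.

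Pcdh8 is also the member with Oct6 peaks closest to its start on chromosome 14 (80166587 to 80171119, minus strand, mm9), save for Pcdhb2. Peaks centred 0.094 and 0.402 kb upstream of the start both had a score of 10.1, and another, 51.1 kb upstream, scored 16.5. The nearest holds the octamer, and 1 of the 25 RefSeq promoter windows of 22 members (the start site region, GRCm38.p6) holds ATGCAAAT, that of Pcdh8, against 1.74% of all 32851 windows. Both start-site peaks are shown, the octamer in capitals.
Pcdh8 nearest peak, chr14:80171147-80171279, plus strand: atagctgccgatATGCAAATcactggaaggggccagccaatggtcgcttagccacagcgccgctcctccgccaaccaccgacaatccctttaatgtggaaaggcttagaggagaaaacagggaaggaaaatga
Pcdh8 second peak, chr14:80171455-80171587, plus strand: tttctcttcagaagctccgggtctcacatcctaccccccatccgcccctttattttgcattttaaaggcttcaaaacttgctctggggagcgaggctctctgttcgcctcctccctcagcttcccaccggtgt

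Pcdh18, a receptor of the same subfamily, had 1.76, 6.90 and 12.1 FPKM in induced cells, against 0.743, 2.81 and 5.20 FPKM in control cells. Levels were higher on each later day in both arms, and the induced value was called higher at days 4 and 6 (1.05 and 1.08, with 0.96 at day 4 under median ratio scaling and 0.86 with quantile normalisation). The limma mean was 0.93 ± 0.17 (SE) with an adjusted p of 0.124, and no peak met the distance rule. Pcdh10, a protocadherin of striatal and cortical axons, had 0.161, 0.560 and 1.31 FPKM in induced cells, against 0.0708, 0.0325 and 0.308 FPKM in control cells, and differed by 0.82 at day 6. Pcdh19, an X-linked gene of forebrain neurons, had 0.802, 0.674 and 0.989 FPKM in induced cells, against 0.188, 0.123 and 0.622 FPKM in control cells, without overlap of the arms. Pcdh17 had 0.268, 0.589 and 0.659 FPKM in induced cells, against 0.170, 0.0661 and 0.645 FPKM in control cells. Of its 3 peaks, the intronic one 18.6 kb from the start holds an octamer and is shown for it.
Pcdh17 peak, chr14:84861865-84861997, plus strand: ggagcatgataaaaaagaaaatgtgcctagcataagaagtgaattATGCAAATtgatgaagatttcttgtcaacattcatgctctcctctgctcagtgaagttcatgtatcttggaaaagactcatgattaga
Of the remaining protocadherins, Pcdh15, the hair cell tip link partner of Cdh23, had 0.0219, 0.0750 and 0.130 FPKM in induced cells and at most 0.00563 FPKM in control cells, values near that of a few fragments, and Pcdh20 stayed at 0.177 FPKM or less.

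Nearly all symbols of the beta cluster were above control. Each of its genes is a single large coding exon of the tandem array on chromosome 18, and the authors' counting may split or drop reads among these close copies, so single symbols are less certain than the sum. The summed FPKM of its 22 symbols was 5.14, 12.5 and 23.1 on days 2, 4 and 6 in induced cells, against 1.11, 0.916 and 8.61 in control cells. Induced was the higher by 4.64, 13.6 and 2.69 times, and after quantile normalisation by 2.99, 9.32 and 2.29 times. All 21 symbols listed above 0 at day 2 were above control, as were all 22 at day 4 and 21 of 22 at day 6. The shares over all genes were 63.3%, 60.1% and 58.5%. The beta counts were 20 of 21 at day 2 after quantile normalisation and otherwise the same under both scalings. The median difference was 0.20, 0.41 and 0.49. In 11 of the 22, all induced libraries lay above all control libraries, against 11.2% of all genes.

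These are low levels. By the worth of 1 fragment estimated from low values, the 22 symbols together held about 512, 1215 and 2103 fragments in induced cells, against 132, 183 and 900.0 in control cells. Pcdhb22, the most abundant symbol, had 0.728, 2.89 and 3.85 FPKM in induced cells, against 0.0507, 0.303 and 2.80 FPKM in control cells, and was called at day 4 (1.58). Pcdhb19 had 0.280, 1.42 and 2.54 FPKM in induced cells, against 0.00770, 0.0258 and 0.610 FPKM in control cells. It was called at days 4 and 6 (1.24 and 1.14, with 0.97 at day 6 after quantile normalisation), and its limma mean of 0.91 ± 0.25 (SE) had an adjusted p of 0.169. Pcdhb17 was the highest symbol of control day 2, with 0.592, 0.981 and 2.48 FPKM in induced cells, against 0.421, 0.137 and 0.803 FPKM in control cells. Pcdhb9 and Pcdhb4 stayed at 0.253 FPKM or less. The one peak near beta symbols, scored 10.1 and between genes, lay 0.079 kb upstream of the Pcdhb2 start. It is the peak counted for each of Pcdhb1 to Pcdhb8. Pcdhb2 had 0.556, 0.716 and 0.879 FPKM in induced cells, against 0.102, 0.0761 and 0.246 FPKM in control cells, without overlap.

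**Figure D5:**
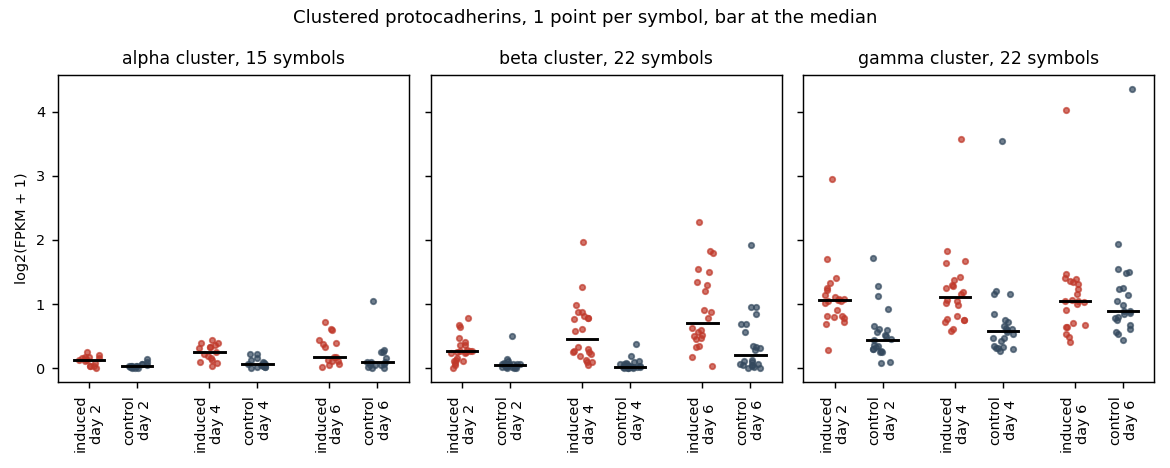
log2(FPKM + 1) of every clustered protocadherin symbol in each library (1 point per symbol, bar at the median), induced beside control for each day. The beta medians are above control on all days, and the gamma medians are close to each other at day 6 (1.07 FPKM in induced, 0.858 FPKM in control).

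Symbols of the alpha and gamma clusters each join a variable first exon to shared constant exons, so their separate FPKM values depend on how the authors divided shared reads. The 15 alpha symbols summed to 1.33, 2.89 and 3.51 FPKM in induced cells, against 0.424, 0.880 and 2.14 FPKM in control cells. The median difference was 0.07, 0.15 and 0.09. Among them 11 of 14, 13 of 15 and 12 of 15 were above control at days 2, 4 and 6, against 63.3%, 60.1% and 58.5% of all genes. The day 6 number became 10 under either scaling and the day 2 number 10 after quantile normalisation. Pcdhac2 was the single alpha symbol to reach 1 FPKM and the lowest against control at day 6 (-0.44), with 0.103, 0.185 and 0.520 FPKM in induced cells, against 0.105, 0.110 and 1.07 FPKM in control cells. Pcdha3 differed most upward, with 0.649 FPKM in induced and 0.0320 FPKM in control cells at day 6.

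The gamma cluster was the most abundant, and nearly all its symbols were above control at days 2 and 4 but not at day 6. Its 22 symbols summed to 28.9, 36.4 and 37.2 FPKM in induced cells, against 11.4, 22.1 and 41.8 FPKM in control cells. At days 2 and 4, 21 of 22 symbols were above control (at day 4, 19 with median ratio scaling and 17 with quantile normalisation; at day 2, 20 after quantile normalisation). At day 6, 13 were, a number that became 11 with median ratio scaling and 7 with quantile normalisation. Over all genes as deposited, 63.3%, 60.1% and 58.5% were above control at days 2, 4 and 6. Without the 3 C-type symbols, the A and B symbols summed to 20.8, 23.6 and 19.3 FPKM in induced cells, against 8.77, 9.001 and 19.5 FPKM in control cells. The C-type Pcdhgc3, which carried the cluster's highest level, had 6.70, 10.9 and 15.4 FPKM in induced cells, against 2.29, 10.6 and 19.6 FPKM in control cells. It was called at day 2 (1.23, or 0.81 after quantile normalisation) and differed by 0.03 and -0.33 later, and its trend of -0.39 ± 0.09 (SE) per day had a limma adjusted p of 0.232. The median difference of the cluster was 0.54, 0.53 and 0.02. Pcdhga10 was called at day 4 (1.11, or 0.86 after quantile normalisation), with 1.16, 2.17 and 1.61 FPKM in induced cells, against 0.264, 0.474 and 1.91 FPKM in control cells. Pcdhga11 was the lowest at day 6 (-0.70), with 1.35 FPKM in induced and 2.81 FPKM in control cells.

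Neural markers stand beside the clustered and delta protocadherins. The 6 genes summed to 69.5, 51.3 and 88.6 FPKM in induced cells, against 20.3, 17.5 and 24.7 FPKM in control cells, and 2, 5 and 3 of them were at least 2-fold higher at days 2, 4 and 6. None was listed at 0, and their part in the protocadherin values was not tested. Tubb3 alone had 50.7, 28.6 and 56.2 FPKM in induced cells, against 15.4, 2.92 and 10.3 FPKM in control cells. Nes was below control at day 4, with 9.20 FPKM in induced and 13.8 FPKM in control cells. The 5 neural crest markers summed to 7.27, 8.02 and 13.6 FPKM in induced cells, against 32.4, 8.01 and 6.63 FPKM in control cells, with none listed at 0. The day 2 sums were mostly Foxd3, with 4.75 FPKM in induced and 31.4 FPKM in control cells. Sox10, Pax3, Tcfap2a and Sox9, at 1.21 FPKM or less that day, differed upward by 0.06, 0.40, 0.64 and 0.42. Foxd3 was called lower at days 2 and 4 (-2.50 and -1.11), Pax3 higher at days 4 and 6 (1.74 and 1.98), and Tcfap2a higher at day 6 (1.41). Their part in the cadherin values, Cdh6 included, was not tested. Among 8 genes of protocadherin promoter choice and silencing, 2 were lower at day 2 (1.83% of all genes) and 1 at day 4 (2.11%). Their medians were -0.15, -0.10 and 0.10. Dnmt3b, the de novo methyltransferase that acts on clustered protocadherin promoters in the embryo, had 92.7, 89.4 and 56.8 FPKM in induced cells, against 348, 248 and 88.9 FPKM in control cells. Dnmt3a had 38.1, 31.4 and 29.1 FPKM in induced cells, against 90.4, 19.9 and 21.4 FPKM in control cells. Ctcf, the looping factor of the clusters, differed by -0.09, -0.03 and 0.08.

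Within an arm, later days were set against earlier ones with the same call rule; these comparisons share libraries with those above. Between days 2 and 4, 5 of 35 members were at least 2-fold higher at the later day in induced cells, against 2.73% of all genes, and 6 of 16 in control cells, against 9.63%. Between days 4 and 6 the numbers were 1 of 42 in induced cells, against 2.98%, and 5 of 24 in control cells, against 6.15%. No member was called lower in any of the 4 comparisons, where 2.36%, 4.65%, 2.1% and 2.97% of all genes were. Between days 4 and 6 the member called in induced cells was Cdh5, at 1.21. In control cells Cdh5, at 2.75, was called together with Cdh6, Cdh11, Pcdh8 and Pcdhb22. Pcdh7 differed by 1.52 between days 2 and 4 in induced cells and by 2.95 in control cells.

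The wider cadherin superfamily was read from a list of 19 genes, 18 of them in the table. On each day 12 of them were measured at 1 FPKM. Calls of higher in induced cells numbered 5, 4 and 1 on days 2, 4 and 6, against 9.72%, 6.09% and 3.37% of all genes. There was no call of lower, and the medians over the 18 were 0.08, 0.07 and 0.03. Fat4, a large cadherin of planar polarity, had 4.65, 2.42 and 2.50 FPKM in induced cells, against 0.0344, 0.0963 and 1.34 FPKM in control cells. Fat3 had 1.68, 3.46 and 3.11 FPKM in induced cells, against 0.191, 0.281 and 0.774 FPKM in control cells. Its differences were 1.17, 1.80 and 1.21. Clstn2, a calsyntenin of synapses, differed by 1.87, 1.64 and 0.79, and Dchs1, the ligand of Fat4, by 1.45 at day 4. The desmosomal cadherins Dsg2 and Dsc2 were higher at day 2 (1.16 and 1.29) and stood at -0.37 and -0.51 at day 4.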

How the data were processed

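HOMER, Cuffdiff, Cufflinks 1.3.0 and TopHat 1.4.1 and the build mm9 are named, with no roles, in the submitters' processing notes. Settings, strandedness and the treatment of multi-mapping reads are not given in the sources used here. The deposited FPKM values come from the authors as 1 table of genes by library. The deposited peak list gives 1 score per peak, made by the authors. The members and lists were chosen with earlier results of these data known.

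Values were taken as log2(FPKM + 1) in Python 3.11.15 (numpy 2.4.6, pandas 2.3.3, matplotlib 3.10.9) and R 4.3.3 ran limma 3.58.1 (lmFit, eBayes with trend, day as a block, Benjamini-Hochberg adjustment). The limma step was run on simulated data with planted differences. That is a check of the code, not of the spread between real cultures. Nothing says that libraries are separate cultures, and each arm and day had 1. The worth of 1 fragment was taken as the most frequent low value of FPKM times length over genes with 1 annotated transcript, so fragment numbers are estimates. Symbols were matched to GENCODE's annotation of NCBIM37; for a symbol with several entries the longest was used. Of 7979 peaks, 14 lay off the reference chromosomes and were left out of motif counts. Named members were the type I cadherins, members at 5 FPKM or more in any library, members called on any day, the most abundant and most changed symbols of each cluster, and members with a peak. Further members were named after their values were seen. Sequences are from NCBIM37, and none is printed for chromosome 18. Of the 6 octamer peaks at members, 1 is not reported here. Alternatives were another pseudocount, filter, scaling, block, day set, trend setting, peak distance and peak score.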

Additional observations from a re-analysis of the deposited data

How the results depend on the processing

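All 26 day calls kept their direction under both scalings. A pseudocount or a filter cannot reverse a direction, so those alternatives bear on the size and number of calls alone. The filter of 5 FPKM left 13 of the 26 calls to compare. A difference of 1 on the log2(FPKM + 1) scale already needs at least 1 FPKM in the higher library. Dropping the FPKM limit could therefore not change any count, and its unchanged counts are no check. With each cluster summed to 1 value, the counts of called members stayed within 1.5 times. They moved with the pseudocount, since a smaller one enlarges differences of low values. With 0.1, 18, 21 and 12 were higher at days 2, 4 and 6 (15.5%, 9.43% and 5.54% of all genes) and 3 lower at day 6 (3.39%). With 0.5, the numbers were 13, 15 and 11 higher (12.6%, 7.71% and 4.42%) and 2 lower at day 6 (2.7%). With at least 5 FPKM in either library, 4 of 7, 3 of 10 and 1 of 12 were higher (8.57%, 4.37% and 2.09%). After quantile normalisation 4 were higher at day 2 (5.82%), 3 at day 6 (2.61%) and 2 lower at day 6 (2.47%). Median ratio scaling also gave 2 lower at day 6 (2.25%). Of 26 day calls, 7 dropped below 2-fold after quantile normalisation and 1 under median ratio scaling. Members passing limma's adjusted threshold numbered 0 in the fits without day 2, day 4 or day 6 and in every other limma alternative. The 20 members at an unadjusted p under 0.05 in limma kept their direction in 180 of 180 alternative values, with adjusted p from 0.0860 to 0.775. They were picked from the same libraries that the alternatives refit, so the kept direction was largely set by that choice and is no separate support. Members with an Oct6 peak numbered 20 of 60 with a distance of 10 kb (33.3%, against 18.8% of all genes), and 12 with the 2784 peaks scoring above the median (20%, against 22.3%). The day block pairs the arms of a day, and the labels give no replicate numbers to pair by. Without it, members passing numbered 0 too. At symbols below about 0.05 FPKM a few fragments decide the value.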

Other observations

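Of 9 partners of protocadherin tails, which include subunits of the WAVE actin-nucleating complex, 1 was at least 2-fold higher in induced cells at day 2, against 9.72% of all genes. None differed by 2-fold at day 4 or 6 (medians 0.38, -0.05 and 0.02). The gene called at day 2 was Fyn, a Src-family kinase, with 13.1, 14.5 and 12.9 FPKM in induced cells, against 5.20, 7.47 and 12.6 FPKM in control cells. Of 5 proteases and convertases, 2 were higher at day 2, against 9.72% of all genes, and none later (medians 0.53, -0.00 and -0.12). Furin, which matures cadherin precursors, had 13.0, 11.2 and 13.5 FPKM in induced cells, against 3.87, 11.2 and 17.0 FPKM in control cells. Adam10, which sheds E- and N-cadherin, had 15.5, 17.4 and 24.9 FPKM in induced cells, against 7.08, 11.3 and 27.8 FPKM in control cells.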
